A study of Mus musculus with 7 samples.

Results

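The smooth muscle contractile apparatus was followed as 33 genes taken by symbol from a list: the actins, myosin and thin filament proteins that generate force, the enzymes that set myosin phosphorylation, ion channels, the cytoskeletal and adhesion proteins that anchor the filaments, and the transcription factor pair that drives them. All 33 of 33 were found among the 21878 genes of the deposited count table, and all 33 were among the 14609 genes that passed the filter on low counts. The samples were abdominal aortas of male C57BL/6 mice aged 8 weeks, exposed for up to 28 days to Ang II (angiotensin II, a vasoconstrictor peptide that induces abdominal aortic aneurysm in hyperlipidaemic mice). Of the 7 libraries, 3 carried the genotype label ApoE-/- (called ApoE 1 to ApoE 3 here) and 4 the label ApoE-/-Nur77-/- (DKO 1 to DKO 4, for double knockout). Apolipoprotein E, whose loss raises plasma cholesterol, is thus labelled as absent in both groups, every mouse received Ang II, and Nur77, the orphan nuclear receptor encoded by Nr4a1, is the labelled difference. The labels give neither the dose of Ang II, nor the deleted part of either gene, nor whether each library came from a separate mouse, and p-values therefore measure the spread between these libraries, which may be in part technical.

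Smooth muscle cells of the aortic media contract when calcium entry activates myosin light chain kinase, which phosphorylates the regulatory light chain of smooth muscle myosin, and they relax when myosin phosphatase removes that phosphate. The genes of this machinery are switched on together by serum response factor, which binds a short sequence called the CArG box, and its coactivator myocardin. In diseased arteries smooth muscle cells can lose contractile gene expression and take on other states, so these transcripts are widely used as a readout of the smooth muscle content and state of the vessel wall. In a whole-tissue sample, fewer smooth muscle cells and less contractile RNA per cell cannot be told apart.

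The CArG box was searched for in the RefSeq promoter windows (GRCm38.p6, 250 bases before to 50 after each annotated start), of which 29 of the 33 genes had at least 1 (all but Actg2, Myh11, Myocd and Tagln). The motif was searched for as CCWWWWWWGG, where W is A or T. This pattern, though not every single box, reads the same on both strands. Boxes that depart from the pattern were not searched for. It was found in 4 of the 29 genes (13.8%), against 1.81% of the 27025 genes with a window. The 4 were Myl9, Vcl, Ldb3 and Srf, and their sequences are shown because they carry the element that this gene set is known for. Each is the part of the window around the motif that lies in no exon of GENCODE M21, 5′ to 3′ on the gene's strand, with the CArG boxes in capitals.
Myl9, chr2:156775263-156775352, plus strand: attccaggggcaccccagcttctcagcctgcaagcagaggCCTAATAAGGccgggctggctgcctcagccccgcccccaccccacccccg
Vcl, chr14:20929148-20929220, plus strand: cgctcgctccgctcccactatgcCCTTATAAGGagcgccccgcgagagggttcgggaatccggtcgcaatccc
Ldb3, chr14:34588683-34588756, minus strand: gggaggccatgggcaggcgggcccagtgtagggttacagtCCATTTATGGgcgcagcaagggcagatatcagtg
Srf, chr17:46556176-46556284, minus strand: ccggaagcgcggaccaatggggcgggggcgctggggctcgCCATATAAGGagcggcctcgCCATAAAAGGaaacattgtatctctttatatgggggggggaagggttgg
Srf, which encodes serum response factor itself, held 2 boxes within its window. No match in the other windows says only that this sequence is not in those bases, and the CArG boxes shown are a description of the promoters, not measured binding sites.

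Library totals ran from 19295287 to 21727192 counts. Levels are given as CPM, which are counts divided by TMM-adjusted library totals, and differences as log2 fold changes of the DKO against the ApoE libraries from edgeR's quasi-likelihood test, with Benjamini-Hochberg adjustment over all 14609 genes and a threshold of 0.05. The labels were checked on their own genes: Nr4a1 ranged from 56.4 to 193 CPM in the libraries labelled ApoE-/- and from 46.2 to 92.7 CPM in those labelled double knockout, overlapping, and Apoe, labelled as lost in both groups, was read at 184 to 250.3 CPM and 18.3 to 34.7 CPM without overlap. For Apoe the log2 fold change was -2.95 (edgeR adjusted p = 0.0227), with the smallest unadjusted p of all genes tested. Both groups carry the same label for Apoe, and the source of this difference was not tested. RNA from outside a deleted part would still be counted, so these levels do not settle the genotype. Every direction below is therefore that of the libraries as labelled. Of the ApoE libraries, 2 also stood apart in heart markers: the summed level of 15 atrial and cardiac genes was 1555 CPM in ApoE 3 and 488 CPM in ApoE 2, against 149 CPM in ApoE 1 and 113 to 181 CPM in the DKO libraries.

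The contractile genes did not differ between the groups beyond the spread of the libraries, and the largest differences lay within the DKO group. Of the 33 genes, 0 passed the threshold in either direction (edgeR adjusted p 0.251 to 0.975), against 0.0274% of all genes tested, all of them lower. At an unadjusted p under 0.05 there was 1 gene, Lpp, where 19.8% of all genes tested had such a p. DESeq2's Wald test also called 0 of the 33, where it called 7.71% of all genes tested, while the voom fit of limma, which weights libraries by quality, called 1, the potassium channel gene Kcnma1, and 16.2% of all genes tested. The CPM of the groups overlapped for all 33 genes, while 16.3% of all genes tested did not overlap. The median log2 fold change was -0.13, with 25 genes negative and 8 positive, beside -0.02 over all genes tested.

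Across the libraries the members moved as a block. DKO 4 held the highest level of the 7 libraries for 31 of the 33 genes, where it did so for 14% of all genes tested. DKO 1 held the lowest for 29 of the 33, against 22.9% of all genes tested. Both held at once for 27 of the 33 (81.8%, against 6.52% of all genes tested). The order was not particular to the members: both held for 9 of 20 other smooth muscle genes (45%). The summed level of those 20 genes was 2578 CPM in DKO 1 and 5605 CPM in DKO 4. That of 8 pericyte genes was 1834 and 4077 CPM, of which Rgs5 alone held 627 and 2319 CPM. Notch3, another of the 8, went the other way, at 150 CPM in DKO 1 and 135 CPM in DKO 4. The summed level of the 33 genes was 20504 CPM in DKO 1, 30596 in DKO 2, 33291 in DKO 3 and 61640 in DKO 4, against 48457 in ApoE 1, 33635 in ApoE 2 and 42344 in ApoE 3. By this sum DKO 4 thus lay above all 3 ApoE libraries, and DKO 1, DKO 2 and DKO 3 lay below them. The median ratio of the highest to the lowest DKO library was 2.81-fold for the members and 1.41-fold for all genes tested, while among the ApoE libraries it was 1.39-fold and 1.29-fold. The standard deviation of log2 CPM was larger in the DKO group for 32 of the 33 genes, and for 55.6% of all genes tested. Cald1 was the exception.

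**Figure D1:**
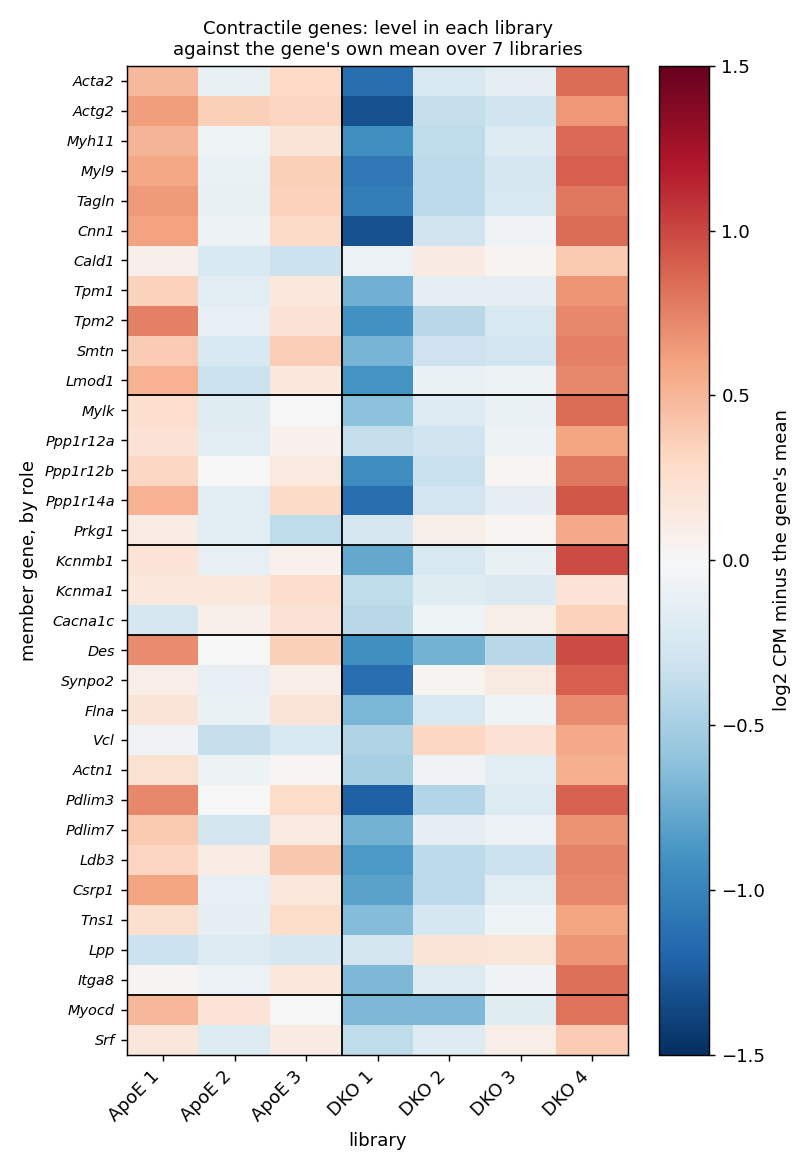
Heat map of the 33 contractile genes (rows, grouped by role between the horizontal lines) in the 7 libraries (columns, the ApoE group left of the vertical line), with colour for log2 CPM minus the gene's own mean over the libraries. DKO 1 is the lowest column for 29 genes and DKO 4 the highest for 31, and for 28 genes all ApoE libraries lie between these columns.

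The group median depended on which of these libraries was present. It was 0.070 without DKO 1, with 20 of the 33 genes positive, and -0.45 without DKO 4, with 29 of the 33 negative. Without both it was -0.30, a comparison chosen after the values were seen. In each of these fits 0 of the 33 genes passed the threshold (edgeR quasi-likelihood test, Benjamini-Hochberg), where 0.0413%, 0% and 0.0474% of all genes tested did. In the same order, at an unadjusted p under 0.05 there were 2, 13 and 9, beside 14.5%, 30.6% and 21.2% of all genes tested.

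Among the force-generating filament genes the smooth muscle actin, myosin and thin filament transcripts showed this pattern most plainly. Acta2 encodes smooth muscle alpha-actin, the main actin of the vessel wall (chromosome 19, 34240336 to 34255585). It was at 9189.9, 6119.5 and 8107 CPM in ApoE 1 to ApoE 3 and at 3016, 5599, 5931 and 11779 CPM in DKO 1 to DKO 4. The ApoE values lay within the range of the DKO values, and the means were 7805 ± 1557 CPM (SD, n = 3) and 6581 ± 3702 CPM (SD, n = 4). The log2 fold change was -0.25 (95% interval -1.24 to 0.75, edgeR adjusted p = 0.792).

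Myh11, the smooth muscle myosin heavy chain and the most restricted marker of these cells (chromosome 16, 14194527 to 14292188), was at 4802, 3214 and 3865 CPM in the ApoE libraries and at 1779, 2588, 2959 and 6100 CPM in the DKO libraries. DKO 4 exceeded every ApoE library and the other 3 DKO libraries were below them all. Its log2 fold change was -0.24 (95% interval -1.19 to 0.71, edgeR adjusted p = 0.786). Myl9, the regulatory light chain that the kinase phosphorylates, followed it, with a 3.93-fold range within the DKO group.

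Tagln encodes transgelin, an actin-binding protein of differentiated smooth muscle (chromosome 9, 45929628 to 45936058). Its levels were 6317, 3735 and 5157 CPM against 1973, 3094, 3426 and 6988 CPM, with a log2 fold change of -0.39 (95% interval -1.37 to 0.59, edgeR adjusted p = 0.635). Cnn1 encodes calponin, which inhibits the actin-activated myosin ATPase (chromosome 9, 22099221 to 22109221). It was at 1354, 848 and 1088 CPM against 360.5, 724, 864 and 1601 CPM, and its 4.44-fold range was the widest of the 33 genes within the DKO group. The log2 fold change of Cnn1 was -0.31 (95% interval -1.35 to 0.74, edgeR adjusted p = 0.744). Smtn, which encodes smoothelin, a marker of contractile cells (chromosome 11, 3517522 to 3539292), was at 1256, 827 and 1251 CPM against 597, 778, 791 and 1636 CPM. Its log2 fold change of -0.23 had a 95% interval of -1.06 to 0.60 (edgeR adjusted p = 0.763). In these 3 genes, too, DKO 4 lay above the ApoE range and DKO 1 below it.

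**Figure D2:**
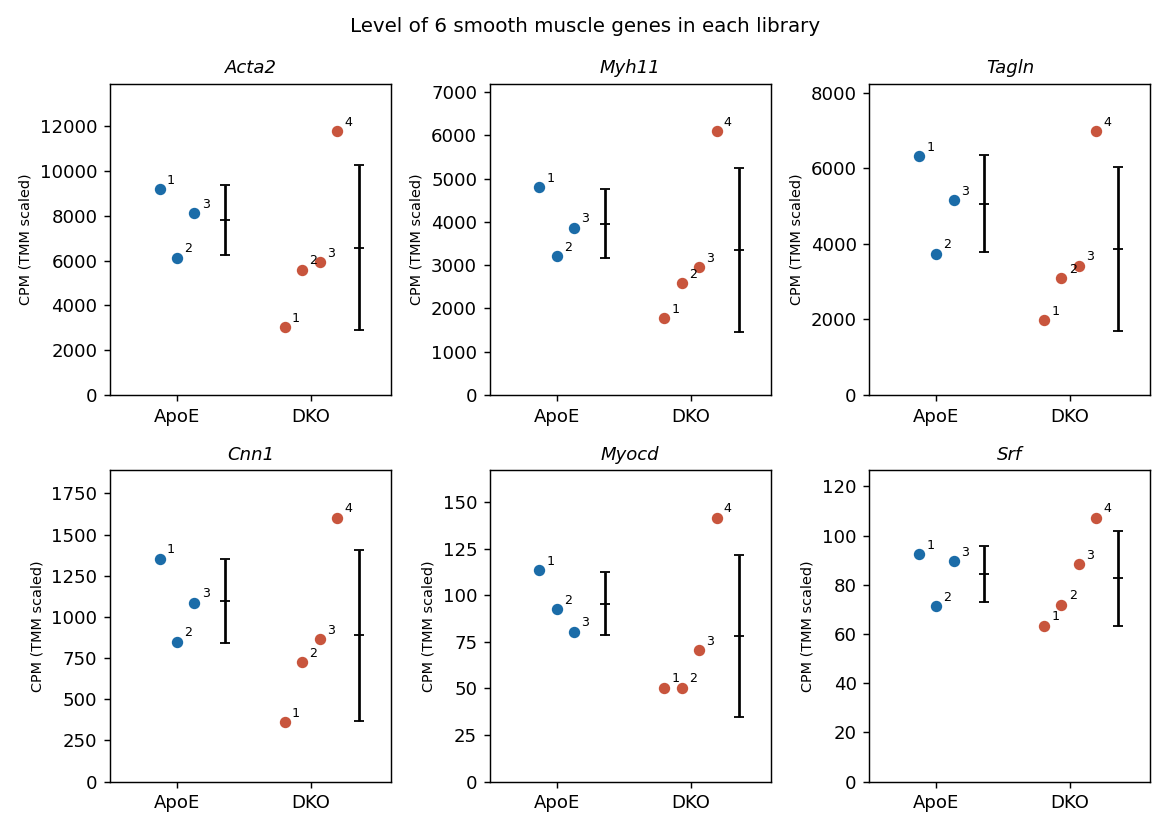
CPM of 6 smooth muscle genes, 1 point per library with its number, and beside each group the mean (short bar) with SD (whiskers), for the ApoE (n = 3) and DKO (n = 4) groups. For all 6 genes the DKO points run from below to above all ApoE points, and for Srf they run from 63.3 to 107 CPM.

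Actg2, the enteric-type smooth muscle gamma-actin, had the most negative fold change of the 33 genes (chromosome 6, 83512909 to 83536251). It was at 311, 257 and 252 CPM in the ApoE libraries and at 81.1, 157, 164 and 315 CPM in the DKO libraries. Of the DKO libraries, 3 were below the ApoE range and DKO 4 was above it, and the log2 fold change was -0.61 (95% interval -1.53 to 0.31, edgeR adjusted p = 0.417). Actg2 and Acta2 encode proteins nearly identical to the striated muscle actins, and reads from stretches that are also alike in RNA may have been split among them. How far the RNA sequences are alike was not examined. The cardiac actin gene Actc1 was at 221 CPM in ApoE 3 and 68.0 CPM in ApoE 2, against 6.75 to 28.4 CPM in the other libraries, and its part in the actin counts was not tested.

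The tropomyosins cover the actin filament. Tpm2 (chromosome 4, 43513726 to 43523583) was at 1924, 1042 and 1317 CPM against 604, 854, 959 and 1880 CPM, so ApoE 1 and DKO 4 were both high. Its log2 fold change was -0.41 (95% interval -1.34 to 0.52, edgeR adjusted p = 0.591), and that of Tpm1 was -0.13. Lmod1, a leiomodin that nucleates actin filaments in smooth muscle, was also at -0.13. Cald1, caldesmon, which is also made in non-muscle cells as a shorter form, was the only filament gene with a positive value (chromosome 6, 34598495 to 34775469). Its levels were 1109, 899 and 843 CPM against 997, 1152, 1091 and 1392 CPM, the highest in DKO 4 and the lowest in ApoE 3. The log2 fold change of Cald1 was 0.29 (95% interval -0.09 to 0.66, edgeR adjusted p = 0.360), and its 1.395-fold range within the DKO group was the narrowest of the 33 genes.

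Genes that set the phosphorylation of myosin had log2 fold changes between -0.21 and 0.27. Mylk encodes the myosin light chain kinase and was at 871, 646 and 734 CPM against 476, 642, 680 and 1305 CPM (log2 fold change 0.05). Ppp1r12a and Ppp1r12b, the targeting subunits of myosin phosphatase, were at -0.03 and -0.13. Ppp1r14a, the phosphatase inhibitor CPI-17, was at -0.21 and ranged 4.19-fold within the DKO group. Prkg1, the cyclic GMP-dependent kinase that mediates relaxation by nitric oxide, was at 0.27. The adjusted p-values of these 5 genes were 0.491 to 0.955 by edgeR.

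The ion channel genes Kcnma1 and Cacna1c ranged 1.49-fold and 1.69-fold within the DKO group, below the median of 2.81-fold for the 33 genes. Kcnma1, the pore of the large-conductance calcium-activated potassium channel (chromosome 14, 23292288 to 24005110), was at 72.7, 72.8 and 78.1 CPM in the ApoE libraries and at 50.3, 57.6, 55.9 and 74.9 CPM in the DKO libraries. Of the DKO libraries, 3 were below every ApoE library and DKO 4 was within the ApoE range. Its log2 fold change was -0.32 (95% interval -0.64 to 0.00061, edgeR adjusted p = 0.253). With limma voom and sample quality weights the adjusted p was 0.0383, and over the 19 alternative settings it ran from 0.0383 to 0.710. The voom fit gave DKO 4 a weight of 0.41, the lowest of the 7. Kcnmb1, the smooth muscle beta subunit of the same channel, had a log2 fold change of 0.06 and a 3.35-fold range within the DKO group, and Cacna1c, the pore of the L-type calcium channel, had -0.01.

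The cytoskeletal and adhesion genes held the largest positive values. Lpp encodes a LIM-domain protein of focal adhesions that is abundant in smooth muscle (chromosome 16, 24393350 to 24992578). It was at 356, 386 and 374 CPM against 367, 507, 504 and 705 CPM. Only DKO 1 lay within the ApoE range, and the other 3 DKO libraries were above it. The log2 fold change of 0.49 (95% interval 0.0028 to 0.97) did not pass the threshold (edgeR adjusted p = 0.251). Vcl encodes vinculin, which links actin to integrin adhesions (chromosome 14, 20929383 to 21033676). It was at 501, 409 and 443 CPM against 380.5, 644, 603 and 774 CPM, again with DKO 1 low and 3 DKO libraries above the ApoE range, and its log2 fold change was 0.41 (95% interval -0.12 to 0.95, edgeR adjusted p = 0.355).

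The other genes of this class had log2 fold changes of -0.44 to 0.12, and edgeR adjusted p-values of 0.594 to 0.961. Des, which encodes the intermediate filament protein desmin, was at 321, 198 and 253 CPM against 104, 120.3, 148 and 388 CPM, with DKO 4 far above the other 3. Pdlim3, an actinin-binding protein, ranged 4.30-fold within the DKO group and Synpo2, an actin-bundling synaptopodin relative, 4.13-fold. Flna, filamin A, and Actn1, alpha-actinin 1, which occur in many cell types, ranged 2.63-fold and 2.05-fold. Itga8, an integrin chain of contractile cells, had a log2 fold change of 0.04, and the focal adhesion gene Tns1 had -0.16. Des and Ldb3 are also genes of cardiac muscle. Ldb3 was at 103, 89.6 and 109 CPM against 45.4, 63.2, 66.1 and 139 CPM, and the part of the heart markers in these levels was not tested. Without ApoE 2 and ApoE 3 together the median log2 fold change of the 33 genes was -0.35. That fit leaves only ApoE 1 in its group, the ApoE library with the highest summed contractile level (48457 CPM). It therefore cannot separate the heart markers from the level of that library.

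**Figure D3:**
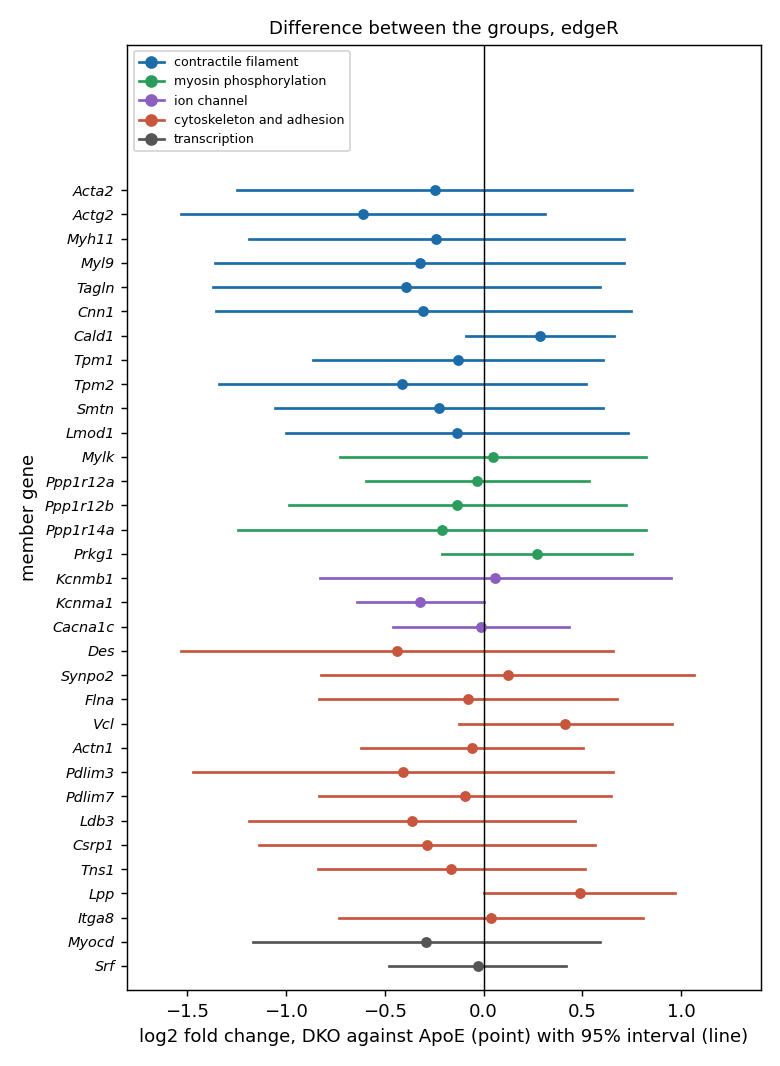
Log2 fold change of the DKO against the ApoE libraries (point) with its 95% interval (line) from edgeR for the 33 genes, coloured by role. The interval spans 0 for 32 genes, and that of Lpp starts at 0.0028 before adjustment over all genes.

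The transcription factor genes of the set moved with their targets to different degrees. Myocd, which encodes myocardin, the smooth muscle and cardiac coactivator (chromosome 11, 65173608 to 65269989), was at 114, 92.5 and 80.3 CPM in the ApoE libraries and at 50.4, 50.3, 70.6 and 142 CPM in the DKO libraries. DKO 4 was above all ApoE libraries and the other 3 were below them. The log2 fold change of Myocd was -0.29 (95% interval -1.16 to 0.59, edgeR adjusted p = 0.705). Srf, which is expressed in most cell types (chromosome 17, 46546838 to 46558267), was at 92.3, 71.4 and 89.5 CPM against 63.3, 71.9, 88.3 and 107 CPM. Its log2 fold change was -0.03 (95% interval -0.48 to 0.42, edgeR adjusted p = 0.947), and its range within the DKO group was 1.69-fold against 2.81-fold for Myocd.

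Levels between genes can be compared on the deposited FPKM values, which are scaled for gene length. Tagln was the most abundant of the 33 (mean 2085 FPKM over the 7 libraries, 1012 to 3284), followed by Acta2 (1539 FPKM), Myl9 (898 FPKM), Csrp1, a LIM protein of actin filaments (667 FPKM), Flna (414 FPKM) and Myh11 (269.8 FPKM). Each of the first 5 exceeded the next in 7 of 7 libraries, so this order did not depend on the library although Acta2 alone ranged from 697 to 2507 FPKM. Myh11 exceeded Cnn1 in 6 of 7 libraries. In the middle of the order neighbours changed place: Tpm1 was above Actn1 in 3 of 7 libraries, Smtn above Cald1 in 3 of 7 and Pdlim7 above Des in 3 of 7. At the low end were Myocd (7.72 FPKM), Prkg1 (4.48 FPKM), Kcnma1 (3.33 FPKM) and Cacna1c (3.08 FPKM). Tagln was the most abundant in every library.

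To describe the make-up of the apparatus apart from its amount, each gene was set against Myh11 in the same library, a comparison chosen after the levels were seen. The median within-group standard deviation of the log2 ratio was 0.17 for the other 32 members, where the members' own log2 CPM had median standard deviations of 0.24 (ApoE) and 0.64 (DKO). This restates that the members moved together. Acta2 stood at 191%, 190.4% and 209.8% of Myh11 CPM in the ApoE libraries and at 169.6%, 216%, 200.4% and 193% in the DKO libraries. The ratio of the main actin to the main myosin thus overlapped between the groups.

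There were 4 ratios that did not overlap between the groups, 2 higher (6.25% of 32) and 2 lower (6.25% of 32) in the DKO libraries. The shares over all genes tested were 0.815% and 0.315%, but dividing by Myh11 gives every gene the spread of Myh11, so these shares are low by construction and are no reference for the members. Actg2 was at 6.48%, 8.01% and 6.53% of Myh11 in the ApoE libraries and at 4.56%, 6.08%, 5.53% and 5.16% in the DKO libraries. Pdlim3 was at 5.06%, 4.58% and 4.63% against 3.55%, 4.19%, 4.35% and 4.45%. Both were lower relative to Myh11 in every DKO library than in any ApoE library. Kcnmb1 was at 2.84%, 3.37% and 3.20% against 3.90%, 3.88%, 3.71% and 3.81%. Mylk was at 18.1%, 20.1% and 18.999% against 26.8%, 24.8%, 23.0% and 21.4%. Both of these were higher relative to Myh11 in every DKO library. Each of the 4 had an exact two-sided permutation p of 0.0571, the smallest that 35 splits of 3 against 4 allow. The adjusted p of this permutation test was 0.366 over the 32 ratios. No ratio could have fallen under 0.05, and ranges that do not overlap always give this smallest p. The permutation test therefore cannot decide whether these ratios differ. Against Acta2 in place of Myh11, Actg2, Kcnmb1 and Mylk still did not overlap and Pdlim3 did.

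Vcl and Lpp had the widest mean differences in this ratio. Vcl was at 10.4%, 12.7% and 11.5% of Myh11 in the ApoE libraries and at 21.4%, 24.9%, 20.4% and 12.7% in the DKO libraries. Lpp was at 7.41%, 12.0% and 9.67% against 20.6%, 19.6%, 17.0% and 11.6%. In both genes DKO 4 fell within the ApoE range and the other DKO libraries lay above it. When the mean level of 20 other smooth muscle genes was added to the edgeR model as a covariate, also after the values were seen, Lpp had a log2 fold change of 0.68 (adjusted p = 0.154) and Vcl of 0.66 (adjusted p = 0.159), and 0 of the 33 genes passed (0.0137% of all genes tested did), with 10 of the 33 at an unadjusted p under 0.05 beside 15.4% of all genes tested.

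**Figure D4:**
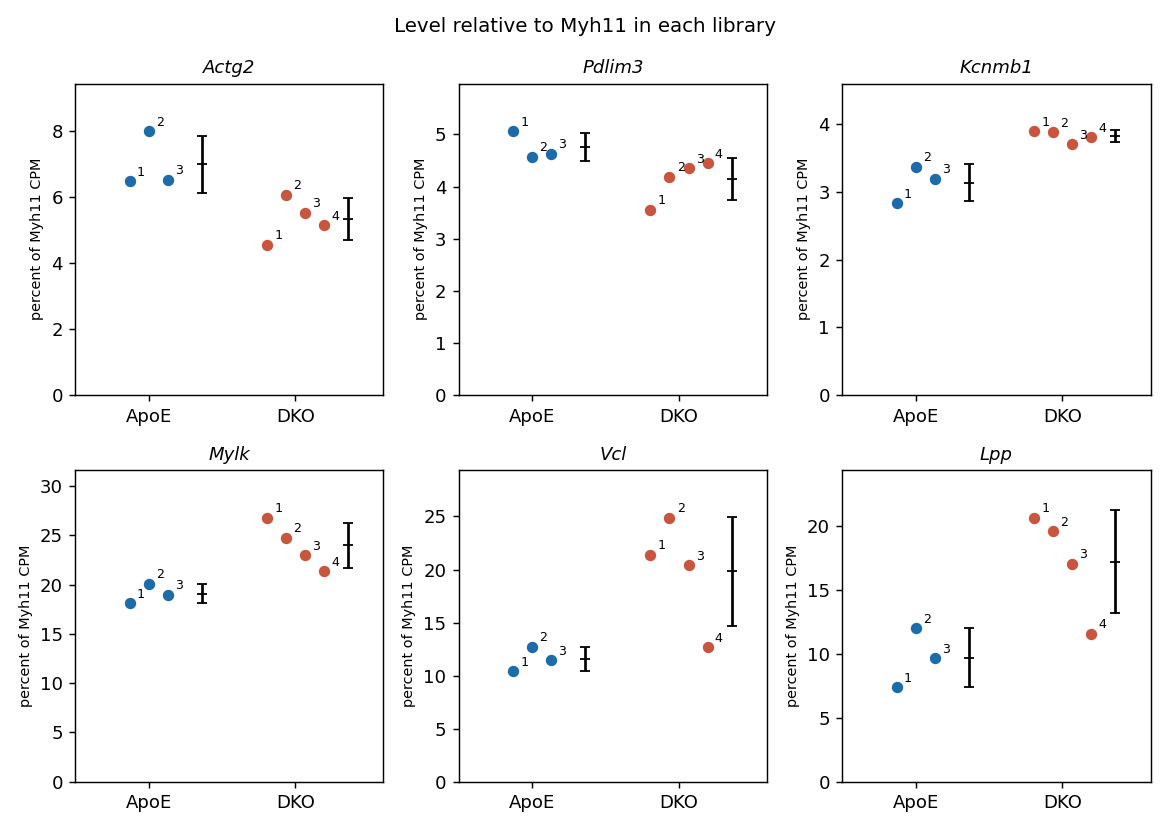
Level of 6 members as a percentage of Myh11 CPM in the same library, 1 point per library with its number, and the group mean with SD. Actg2 and Pdlim3 lie lower, and Kcnmb1 and Mylk higher, in every DKO library than in any ApoE library, while Vcl and Lpp overlap through DKO 4.

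Other genes of contraction and its control formed a list of 59, all tested, among them genes of calcium handling, receptors, cytoskeletal paralogs and transcriptional regulators. Of the 59, 0 passed edgeR's threshold in either direction, against 0.0274% of all genes tested. At an unadjusted p under 0.05 there were 5 of the 59, where 19.8% of all genes tested had such a p. The median log2 fold change of the list was -0.01 with 29 positive and 30 negative. DKO 4 was highest and DKO 1 lowest for 18 of the 59 (30.5%, against 6.52% of all genes tested). For 4 of the 59 the CPM ranges were separate, against 16.3% of all genes tested. Of these, 2 were lower: Klf4, a zinc finger factor that represses contractile genes in cultured smooth muscle, was at 102, 73.6 and 90.8 CPM against 59.5, 46.7, 58.5 and 66.8 CPM (log2 fold change -0.62, SE 0.15, edgeR adjusted p = 0.153), and Stim1, the calcium sensor of the sarcoplasmic reticulum, was at 94.8, 85.0 and 92.2 CPM against 65.8, 66.4, 68.1 and 79.8 CPM (log2 fold change -0.37, SE 0.10, edgeR adjusted p = 0.156). Klf4 was thus lower in every DKO library than in any ApoE library, and its relation to the contractile levels was not tested.

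The 2 higher ones were Tpm4, a non-muscle tropomyosin, and Tead1, a transcription factor of the Hippo pathway. Tpm4 was at 488, 456 and 454 CPM against 690.0, 713, 603 and 519.9 CPM (log2 fold change 0.44, SE 0.13, edgeR adjusted p = 0.166). Unlike the muscle tropomyosins Tpm1 and Tpm2, Tpm4 had its lowest DKO value in DKO 4. Tead1 was at 83.8, 90.0 and 85.8 CPM against 102, 123, 101.5 and 99.3 CPM (log2 fold change 0.30, SE 0.10, edgeR adjusted p = 0.176). Tpm3, another tropomyosin of non-muscle cells, was at 203, 201 and 177 CPM against 289, 276, 268 and 199 CPM (log2 fold change 0.41, SE 0.14, edgeR adjusted p = 0.191) and overlapped through DKO 4. Fhl2, a LIM protein that binds serum response factor, was at 48.8, 32.2 and 42.2 CPM against 32.0, 34.8, 32.5 and 36.7 CPM (log2 fold change -0.27, SE 0.14, edgeR adjusted p = 0.335), and its groups overlapped. DESeq2's Wald test called Klf4, Stim1, Tpm4 and Tead1 of this list, and limma voom called these 4, Tpm3 and Ppp1r12c. These 4 and 6 of 59 stand beside 7.71% and 16.2% of all genes tested, shares that the list did not exceed.

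Markers of other cell types were read in the same libraries, and their part in the levels above was not tested. The summed level of 12 leukocyte genes was 4445 CPM in DKO 1 and 2570 CPM in DKO 4, the libraries at the ends of the contractile range, but 5199 CPM in DKO 3, whose contractile level was intermediate. The ApoE libraries held 2302 to 3530 CPM, overlapping with the DKO range, and all 12 leukocyte genes had positive fold changes. Spp1, osteopontin, a gene of macrophages and of modulated smooth muscle, was at 5111 CPM in DKO 1 and 599 CPM in DKO 4, and at 579 to 2185 CPM in the ApoE libraries. The summed level of 10 genes of modulated smooth muscle, Spp1 among them, was 14126, 8718, 10936 and 8066 CPM in DKO 1 to DKO 4. The ApoE libraries held 7698 to 10952 CPM, overlapping. Within this list Klf4, Ly6a and Tnfrsf11b were higher in DKO 4 than in DKO 1, and the other members were lower. There were 4 lists whose summed level did not overlap between the groups, where 16.3% of single genes tested did not overlap. The 10 myofibroblast genes were higher in the DKO libraries (28606 to 32011 CPM against 34261 to 50880 CPM), with 9 fold changes positive and 1 negative. The 12 white adipocyte genes (10523 to 14164 CPM against 5242 to 7938 CPM) were lower, as were the 8 brown adipocyte genes (704 to 2005 CPM against 277 to 601 CPM). All fold changes of these adipocyte genes were negative. The 12 adventitial fibroblast genes were lower as a sum (9360 to 11525 CPM against 6849 to 7724 CPM), with 9 fold changes negative and 3 positive. In these 4 lists 0 genes passed edgeR's threshold, against 0.0274% of all genes tested. Skeletal muscle genes (14) summed to 28.8 to 157 CPM in every library, and of the defining atrial genes Myl7 was at 0 in ApoE 1 and DKO 4, and Nppa in ApoE 1, DKO 1, DKO 3 and DKO 4.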

How the data were processed

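Polyadenylated RNA of abdominal aorta was sequenced from strand-marking libraries, per the labels' protocols. The submitters' processing notes name Trimmomatic, HISAT2, HTSeq, Cufflinks and DESeq and the build GRCm38.p6, with no versions or roles. Strand use in counting: not given in the sources used here. Exons shared with genes on the opposite strand cannot be told apart. In GENCODE M21, 11 of the 33 genes share exon bases with another gene, among them Tagln (Pcsk7), Vcl (Ap3m1), Lpp (Lppos), Mylk, Kcnma1 and Des. The deposited counts are whole numbers, not normalized by the authors, and the deposited FPKM values were scaled by the authors for gene length and depth. Column names gave each sample's genotype and number, and 27 symbols that had become dates were restored by gene identifier.

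Counts were filtered with edgeR's filterByExpr (minimum count 10), scaled by TMM and fitted with edgeR's quasi-likelihood model on all 7 libraries without covariates (edgeR 4.0.16, limma 3.58.1, DESeq2 1.42.0, R 4.3.3), after a test on simulated data. The standard error is the size of the log2 fold change divided by the root of F, and intervals use the test's degrees of freedom. No library repeated another (lowest chi-square per gene 35.2). Coordinates are RefSeq's on GRCm38.p6. The 33 genes, the list of 59 and the marker lists were chosen with earlier results of these data known. Values are given in full for Acta2, Myh11, Tagln, Cnn1, Smtn, Myocd and Srf, for the genes with the most negative and most positive fold change, and for the 3 with the smallest p in each direction, as are those of the list of 59. Mylk, Des, Pdlim3, Kcnmb1 and the markers named were chosen after their values were seen.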

Additional observations from a re-analysis of the deposited data

Results flagged for a closer look

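Within the 4 DKO libraries, 3 of 41 genes examined had 1 library far from the other 3, by Dixon's ratio of the gap to the range with a critical value of 0.829. Chance flags about 1 group in 20. For Des the ratio was 0.845, with DKO 4 at 388 CPM and the others at 104 to 148 CPM. For Stim1 it was 0.840, with DKO 4 at 79.8 CPM against 65.8 to 68.1 CPM. For Tead1 it was 0.876, with DKO 2 at 123 CPM against 99.3 to 102 CPM.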

How the results depend on the processing

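Of 19 alternative settings, 18 called 0 of the 33 contractile genes, and limma voom called 1 (Kcnma1). The list of 59 had 4 calls with DESeq2, 6 with voom and 0 elsewhere. Over all genes, 4 were called in the edgeR fit, 1126 with DESeq2, 2369 with voom, 0 with unfiltered FPKM, 0 without ApoE 2 and ApoE 3, 7 without DKO 1 and DKO 4, 2 with the smooth muscle level as a covariate, and 0 to 6 when each library was left out. With the replicate number as a block 0 genes were called. The median log2 fold change of the 33 genes was then -0.45, with 29 negative. Only the DKO group has a library numbered 4, so in the block fit DKO 4 adds nothing to the group difference. The block fit is therefore no check independent of the fit without DKO 4, whose median was also -0.45 with 29 negative. In the block fit 8 of the 33 had an unadjusted p under 0.05 (edgeR quasi-likelihood test), beside 3952 of the 14609 genes tested. Deviations of same-numbered libraries correlated at -0.39, 0.70 and 0.0036, and 0.70 was the highest of all pairs across the groups. Not every library correlated best with its own number. These correlations cannot decide whether the numbers pair libraries, and the labels do not say. None of the fold changes that changed sign had passed the threshold. With the replicate block, Itga8 was at -0.35, Kcnmb1 at -0.42, Mylk at -0.33 and Synpo2 at -0.34. With voom, Cacna1c was at 0.11, Itga8 at -0.16, Kcnmb1 at -0.28, Mylk at -0.26 and Synpo2 at -0.11. Cacna1c was at 0.010 with RLE size factors and with DESeq2. On log2(FPKM + 1), filtered or not, Cacna1c was at 0.0080, Itga8 at -0.0063, Kcnmb1 at -0.0082 and Srf at 0.017, and on log2(FPKM + 0.1) Cacna1c was at 0.0082, Itga8 at -0.0070, Kcnmb1 at -0.012, Srf at 0.017 and Synpo2 at -0.0040. Without ApoE 2 and ApoE 3, Cacna1c was at 0.27, Kcnmb1 at -0.093 and Mylk at -0.17. Without DKO 1 and DKO 4, Itga8 was at -0.17, Kcnmb1 at -0.22 and Mylk at -0.18. With the smooth muscle level as a covariate, 20 genes turned positive: Acta2 (0.17), Actn1 (0.19), Cacna1c (0.14), Cnn1 (0.14), Csrp1 (0.080), Flna (0.23), Lmod1 (0.27), Myh11 (0.14), Myl9 (0.092), Myocd (0.011), Pdlim3 (0.023), Pdlim7 (0.25), Ppp1r12a (0.21), Ppp1r12b (0.21), Ppp1r14a (0.22), Smtn (0.13), Srf (0.18), Tagln (0.023), Tns1 (0.13) and Tpm1 (0.20). Leaving out each library moved Acta2 from -0.69 to 0.016, Actn1 from -0.29 to 0.097, Cacna1c from -0.14 to 0.13, Flna from -0.41 to 0.12, Itga8 from -0.33 to 0.24, Kcnmb1 from -0.40 to 0.29, Lmod1 from -0.47 to 0.10, Mylk from -0.32 to 0.24, Pdlim7 from -0.40 to 0.11, Ppp1r12a from -0.29 to 0.097, Ppp1r12b from -0.52 to 0.11, Ppp1r14a from -0.70 to 0.059, Srf from -0.18 to 0.10, Synpo2 from -0.25 to 0.40, Tns1 from -0.45 to 0.019 and Tpm1 from -0.44 to 0.070. The cause of these changes was not tested.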
